A study of Mus musculus with 31 samples.

Results

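Replication-dependent histone genes supply the bulk of the core and linker histones that package newly copied DNA. They were chosen by name and level: every protein-coding gene of the GENCODE M21 annotation whose symbol starts with Hist1h, Hist2h, Hist3h or Hist4h and whose mean over the 16 4-thiouridine (4sU) libraries was at least 1 TPM. TPM here is a share of a library's signal, corrected for transcript length and scaled to the same total in each library. The rule found 61 genes among the 70 symbols of that form and among the 21821 genes that could be tested. They were 5 H1, 17 H2A, 14 H2B, 12 H3 and 13 H4 genes. The lowest members were Hist4h4 at 2.15, Hist1h4j at 2.64 and Hist1h4f at 2.78 TPM. Of the 9 symbols that did not qualify, 4 coding genes lay below the minimum (Hist1h1t at 0.104, Hist2h2be at 0.529, Hist1h2aa at 0.550 and Hist3h2ba at 0.596 TPM), 3 are pseudogenes in the annotation and 2, Hist1h2bh and Hist1h2bm, had no row to be measured in.

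The cells were mouse embryonic stem cells of the XY lines DTCM23/49, all labelled as carrying a conditional Dicer mutation. Dicer makes mature microRNAs, and its loss is induced with 800 nM 4-hydroxytamoxifen. Cultures of 2 genotype labels, WT and Dicer depleted, had 2 biological replicates each, and the labels give 8 days of treatment for both; what the WT cells received during those days is not given in the sources used here. All cultures were exposed to 200 µM 4sU for 10 or 15 minutes, which marks RNA made in that time, and the labelled RNA was separated from the rest, called preexisting. The labels do not say which library came from which line. Each genotype and fraction thus had 4 libraries, from 2 cultures at 2 labelling times, and n = 2 cultures throughout. The study asked how transcript decay changes when microRNAs are lost, and the comparisons that follow from its design are Dicer depleted against WT in each fraction and labelled against preexisting RNA in each genotype.

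Histone messenger RNAs of this class are made mainly while DNA is being copied. They lack introns as a rule and end in a conserved stem-loop in place of a poly(A) tail; the stem-loop is bound by SLBP, and it guides the cut that forms the end of the RNA, its translation and its rapid decay when replication stops. H2A, H2B, H3 and H4 form the nucleosome core, and H1 binds the DNA between cores. Embryonic stem cells divide fast and spend much of the cycle in S phase.

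Of the 61 members, 58 had the stem-loop within 100 bases after the stop codon. It was searched as 16 bases that begin with GG, with 6 stem pairs around a loop of 4 bases starting with TT, and at most 1 pair missing; 39 of 21685 other coding genes, 0.180%, held such a site. Its first base lay 22 to 59 bases after the stop codon. None was found for Hist1h2br, Hist1h3g and Hist1h4a. The search covered only the transcript of highest level. For Hist1h2br that transcript has 2 exons and a coding length of 402 bases, where that of Hist1h2bq has 378. Sites after another stop codon or with other first bases were not searched for. The word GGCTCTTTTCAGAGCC was shared by 36 members, all 5 H1 genes among them, and no H4 gene had it, whereas 8 H4 genes shared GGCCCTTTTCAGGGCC. The sites below stand for the types whose levels are described later. They are read from the GRCm38.p6 genome in the direction of the gene, with 5 flanking bases on each side and the stem-loop in capitals. Hist1h4d and Hist4h4 are shown together because they carry the same stem-loop and moved in opposite directions.
Hist1h1d (H1), chr13:23555787-23555802, plus strand: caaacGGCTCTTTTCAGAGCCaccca
Hist1h2ai (H2A), chr13:21716839-21716854, plus strand: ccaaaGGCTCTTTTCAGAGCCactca
Hist1h2bl (H2B), chr13:21715718-21715733, minus strand: tcaaaGGCTCTTTTAAGAGCCaccca
Hist1h3h (H3), chr13:21718095-21718110, plus strand: tcaaaGGCTCTTTTCAGAGCCaccca
Hist1h4d (H4), chr13:23581950-23581965, plus strand: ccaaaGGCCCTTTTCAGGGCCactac
Hist4h4 (H4), chr6:136803998-136804013, minus strand: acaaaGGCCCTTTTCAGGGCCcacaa

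The annotated transcript of 41 members reached past the stem-loop, as the 3′ end of Hist1h4d does by 770 bases and that of Hist4h4 by 2445 bases. That of 17 others, such as Hist1h2ai and Hist1h3h, stopped before it. Of the members, 58 had 1 exon in the transcript of highest level. Most lie in 2 clusters: 50 members between bases 21715763 and 23934156 of chromosome 13, and 9 between bases 96219865 and 96270132 of chromosome 3. Hist3h2a lies on chromosome 11 and Hist4h4 on chromosome 6.

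Starts of transcription were matched to RefSeq (GRCm38.p6) for 56 members, and 250 bases before and 50 after each start were searched on both strands. CCAAT, bound by the factor NF-Y, was present in 47 promoters (83.9%) and in 37.4% of the 32851 promoters of all genes. It occurred in all 17 H2A, 13 H2B, 10 H3 and 4 H1 promoters that were matched, and in 3 of 12 H4 promoters. TATAAA, the core TATA word, was present in 57.1% of the members' promoters against 13.6% of all. ATTTGCAT, the octamer bound by Oct factors, occurred in 6 H2A and 5 H2B promoters, 19.6% of the members' promoters against 1.74% of all. In 9 cases the upstream windows of an H2A and an H2B gene on opposite strands overlapped, so that 18 members came as head-to-head pairs with 1 stretch of DNA between them. The pair Hist1h2ai and Hist1h2bl, which holds the highest H2A and the highest H2B gene, shared 228 bases and is shown from the H2A side. The upstream bases of Hist1h3h and Hist1h4d follow, since they are the H3 and H4 genes described in most detail in the comparison of fractions. In capitals are CCAAT and the TATA word given above, on either strand; a match describes letters and no bound factor.
Hist1h2ai, chr13:21716162-21716411, plus strand: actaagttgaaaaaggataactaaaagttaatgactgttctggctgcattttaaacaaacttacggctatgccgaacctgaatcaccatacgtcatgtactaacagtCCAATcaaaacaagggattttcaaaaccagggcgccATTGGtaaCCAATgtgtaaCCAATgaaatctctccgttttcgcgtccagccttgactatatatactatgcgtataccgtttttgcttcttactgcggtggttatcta
Hist1h3h, chr13:21717378-21717627, plus strand: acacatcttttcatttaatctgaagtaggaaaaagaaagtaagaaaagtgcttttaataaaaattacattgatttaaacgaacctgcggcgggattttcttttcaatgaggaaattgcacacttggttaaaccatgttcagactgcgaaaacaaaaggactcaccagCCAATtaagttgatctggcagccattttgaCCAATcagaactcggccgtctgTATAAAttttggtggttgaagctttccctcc
Hist1h4d, chr13:23581318-23581567, plus strand: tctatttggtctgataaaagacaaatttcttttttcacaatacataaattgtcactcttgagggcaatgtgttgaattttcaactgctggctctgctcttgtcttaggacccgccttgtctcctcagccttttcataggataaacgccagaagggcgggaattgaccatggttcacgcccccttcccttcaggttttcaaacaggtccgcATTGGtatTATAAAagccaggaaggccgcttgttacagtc

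Many members are near copies of one another, which limits how far reads can be assigned to 1 gene. All 13 H4 genes code for 1 protein through 12 coding sequences, and 12 H3 genes code for 2 proteins. In windows of 50 bases, the median share of a transcript found in no other gene was 97.8% for H1, 60.5% for H4, 38.02% for H3, 37.4% for H2B and 21.1% for H2A. Hist1h2bq, Hist2h2aa2 and Hist2h3c1 had no window of their own. The length behind a read is not given in the sources used here, nor whether strand was used, and 23 members overlap another annotated gene. Levels of such genes are uncertain one by one, so results are given by type as well.

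Intronic entries held 15.5 to 23.3% of the signal in labelled and 4.41 to 6.68% in preexisting libraries. In labelled RNA Dicer1 stood at 8.22 ± 0.899 TPM in WT cultures and at 2.87 ± 0.617 TPM in depleted ones (SD, n = 2 cultures; log2 difference -1.26, limma adjusted p = 0.143). In preexisting RNA it stood at 16.5 ± 1.42 and 2.69 ± 0.671 TPM and passed the test (-2.29, limma adjusted p = 0.0347). All 8 stem cell markers examined were present, with a summed level of 946 to 1696 TPM per library. The fibroblast markers Col1a1 and Col3a1 did not exceed 0.301 and 0.004 TPM, but Fbln1 ran from 1.3 to 4.63 TPM and Thy1 reached 2.32 TPM. The primitive endoderm factors Gata6 and Sox17 did not exceed 0.052 and 0.377 TPM, but Gata4 reached 2.49 and Pdgfra 1.79 TPM. The 7 primitive endoderm markers summed to 2.24 to 8.66 TPM in WT and up to 19.04 TPM in depleted preexisting libraries, where Dab2 reached 16.1 TPM; the 7 fibroblast markers summed to at most 6.76 TPM. Their part in the results was not tested. Sequencing depth is unknown for these values, so no counting interval can be given.

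Together the members made up 0.0479 to 0.140% of a labelled library and 0.164 to 0.326% of a preexisting one. In labelled RNA they summed to 1072 ± 399 TPM in WT cultures and 809 ± 162 TPM in depleted ones (SD, n = 2 cultures). In preexisting RNA they summed to 2483 ± 282 and 2226 ± 312 TPM. Cultures differed widely within a group. In WT labelled RNA replicate 1 had 790 and replicate 2 had 1354 TPM. In depleted preexisting RNA the 10 and 15 minute libraries of replicate 1 had 1639 and 3255 TPM, the lowest and the highest of all preexisting libraries. With 2 cultures against 2, an exact permutation test of a sum cannot reach a p of 0.05, so sums are described without one.

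**Figure D1:**
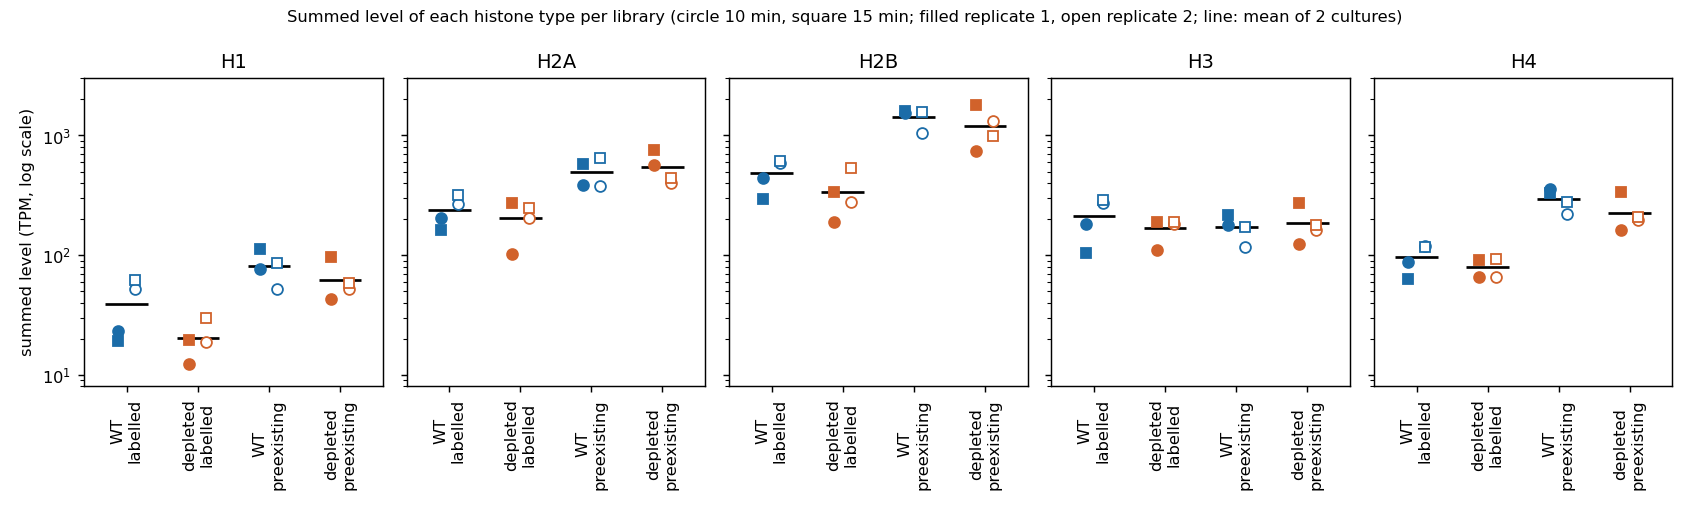
Summed level of each histone type in every library, in TPM on a log axis; columns are the 4 groups of genotype and fraction, circles 10 and squares 15 minutes of labelling, filled replicate 1 and open replicate 2, and the line is the mean of 2 cultures. H1, H2A, H2B and H4 sat higher in preexisting than in labelled RNA, while H3 ran from 103 to 290 TPM in labelled and from 118 to 275 TPM in preexisting RNA.

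Histone types split in their distribution between new and older RNA. H2B, the type of highest level, ran from 188 to 612 TPM over the 8 labelled libraries and from 742 to 1791 TPM over the 8 preexisting ones. H2A ran from 103 to 320 and from 378 to 753 TPM, and H4 from 63.3 to 119 and from 162 to 357 TPM, so that none of these 3 types overlapped between the fractions. H1 ran from 12.4 to 62.3 and from 43.0 to 112 TPM and overlapped. H3 alone among the 5 sums covered about the same range in both fractions. As a share of the members' sum, which no scaling of libraries can change, H3 was 16.1 to 24.4% in labelled and 6.24 to 9.40% in preexisting libraries. H2B was 37.1 to 49.0% and 45.3 to 61.8%. The ratio of summed H3 to summed H4, which pair in the nucleosome, was 1.64 to 2.78 in labelled and 0.496 to 0.848 in preexisting RNA, without overlap in any library. The H3 sum includes Hist2h3c1, which has no window of its own. That entry ran from 11.8 to 34.8 TPM in labelled and from 7.98 to 18.2 TPM in preexisting libraries. Shares and ratios without it were not computed.

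**Figure D2:**
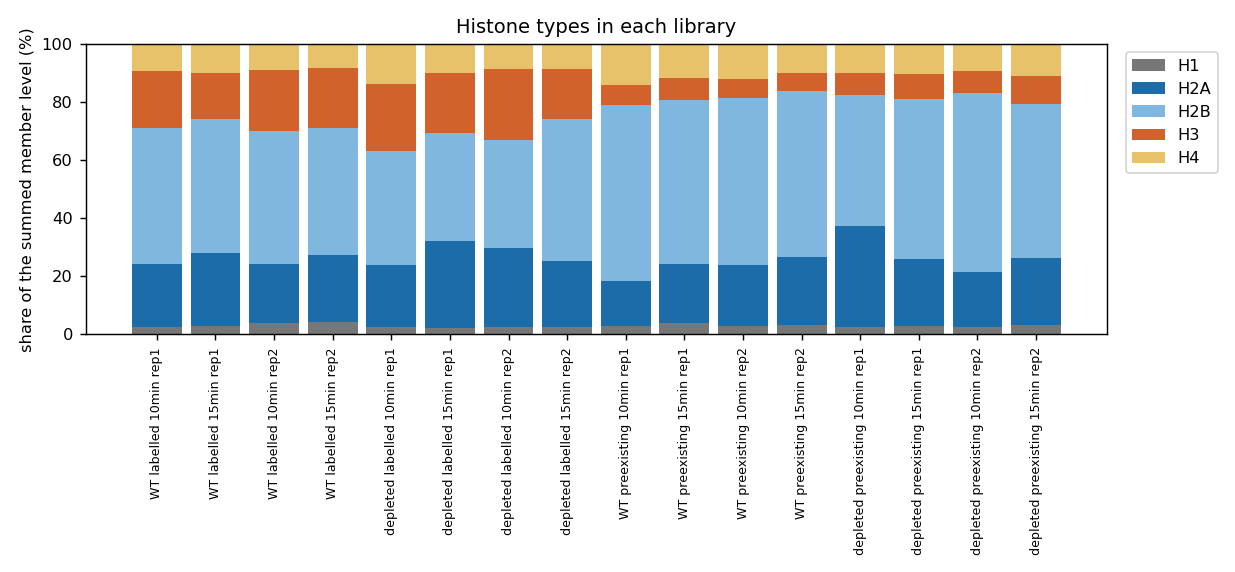
Share of each histone type in the summed level of the 61 members, in percent, 1 bar per library. The H3 band is 16.1 to 24.4% high in the 8 labelled libraries on the left and 6.24 to 9.40% high in the 8 preexisting libraries on the right.

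Against this, single genes were tested as labelled minus preexisting differences of log2(TPM + 1), a scale that understates the change of low genes. In WT cells 36 of 61 members were lower in labelled RNA at an adjusted p below 0.05 and 1 was higher, beside 7.98% of all 21821 genes that were lower and 26.1% that were higher. In depleted cells 44 were lower and 2 were higher, beside 11.0% and 30.1% of all genes. All 36 that were lower in WT were lower in depleted cells too. The median member differed by -1.06 in WT and by -1.37 in depleted cells, where the median of all genes was 0.24 and 0.28. Across the libraries, 34 members had every labelled value below every preexisting value, against 5.45% of all genes.

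By type, the lower calls covered all 14 H2B genes in both genotypes, 11 of 17 H2A genes in WT and 16 in depleted cells, 10 of 13 H4 genes in both, 1 of 5 H1 genes in WT and 4 in depleted cells, and no H3 gene in either. Medians were -1.53 and -1.71 for H2B, -1.41 and -1.33 for H4, -1.003 and -1.365 for H2A, -1.04 and -1.60 for H1, and 0.10 and -0.35 for H3, each in WT and then in depleted cells. Centring each library on the median of all genes, a scaling that changes the all-gene count in WT from 1742 lower and 5692 higher to 5230 lower and 3384 higher, gave 45 lower members in WT and 50 in depleted cells. In depleted cells that scaling takes the all-gene count from 2407 lower and 6565 higher to 6294 lower and 3925 higher. Scaling exonic entries alone gave 1011 lower and 7309 higher genes in WT, 1355 and 8736 in depleted cells, and 26 and 41 lower members. Under centring the H3 medians turned to -0.39 in WT and -0.89 in depleted cells, with 5 of 12 H3 genes lower in the latter. H3 stayed the type nearest to the median of all genes under each scaling tried.

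Leaving out a culture leaves 1 sample in a group. Without WT replicate 1 or WT replicate 2 no gene of all those tested was called in WT, and the members' median was -0.72 and -1.37. Without depleted replicate 1 or 2 fewer genes were called lower in depleted cells, members and all genes alike. The members' medians were -0.99 and -1.76, beside 0.38 and 0.19 for all genes. At 10 minutes alone 12 members were lower in WT and 38 in depleted cells, beside 529 and 1408 of all 21821 genes. At 15 minutes alone 36 and 26 members were lower, beside 1341 and 1491 of all genes. Labelled and preexisting RNA of 1 culture come from the same cells. With the culture as a block 36 and 44 members were again lower, beside 2134 and 2919 of all genes.

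**Figure D3:**
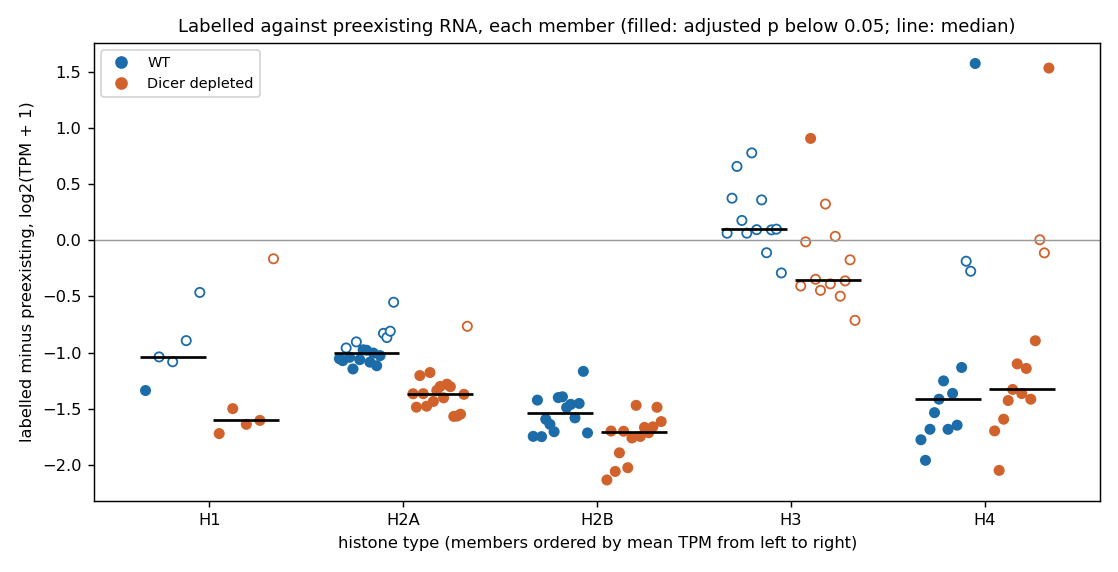
Labelled minus preexisting difference of each member in log2(TPM + 1), by histone type, in WT and Dicer depleted cells; filled points passed an adjusted p of 0.05, and lines are medians. H1, H2A, H2B and most H4 genes lie below 0, H3 genes lie on both sides of 0 (below it at the median in both genotypes after centring), and Hist4h4 stands at 1.57 and 1.53.

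Hist1h2bl (chr13:21715763-21716143, minus strand), an H2B gene and the member of highest mean level at 126 TPM, showed the pattern of its type. In WT labelled RNA it was 57.7 and 38.1 TPM at 10 and 15 minutes in replicate 1, and 78.3 and 83.7 TPM in replicate 2. In WT preexisting RNA the same order gave 217, 236, 160 and 232 TPM. Every labelled value lay below every preexisting one. In depleted cells labelled RNA gave 23.4, 42.1, 34.6 and 69.7 TPM, and preexisting RNA 114, 266, 204 and 156 TPM, again without overlap. The log2 difference was -1.74 (SE 0.30, adjusted p = 0.00384 by limma) in WT and -2.13 (SE 0.30, adjusted p = 0.00134) in depleted cells.

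The other H2B genes followed closely. Hist1h2bn ran from 22.9 to 86.6 TPM in labelled and from 84.6 to 223 TPM in preexisting libraries, with a small overlap, and Hist1h2bk ran from 19.8 to 68.9 and from 92.2 to 223 TPM without one. The H2B genes Hist2h2bb, Hist1h2bg and Hist1h2br differed by -1.71, -1.70 and -1.64 in WT and by -1.61, -2.02 and -1.70 in depleted cells, and Hist1h2bp by -1.59 and -1.89. In depleted cells Hist1h2bf, Hist1h2bc and Hist1h2be were also among the 10 largest falls, at -1.76, -1.75 and -1.71. Differences of the 14 H2B genes lay between -1.17 and -1.75 in WT. The smallest was that of Hist1h2ba, the testis-type H2B gene, at -1.17 (adjusted p = 0.0186). Pearson's r between pairs of H2B genes over the 16 libraries was 0.919 to 1.00. Those libraries span both fractions, so this r largely restates the difference between fractions. Shared sequence and the common denominator of a library take part in it too.

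H2A genes, the partners of H2B in the nucleosome and for the most part its neighbours on the chromosome, were lower in labelled RNA by a smaller amount. Hist1h2ai (chr13:21716422-21716814, plus strand), the highest of them, ran from 10.9 to 31.4 TPM in labelled and from 37.5 to 75.9 TPM in preexisting libraries, without overlap. It differed by -1.05 in WT (SE 0.30, adjusted p = 0.0283) and by -1.37 in depleted cells (SE 0.30, adjusted p = 0.00843). The WT call was lost without a filter on low values, with exonic entries scaled alone and at 10 minutes alone. Hist1h2an differed by -1.07 and -1.48, and Hist1h2ah, which did not pass in WT (adjusted p = 0.0539), by -0.96 and -1.20. Hist1h2ac, with 85.9% of its windows found in no other gene, differed by -1.08 in WT and -1.40 in depleted cells. Hist3h2a, which overlaps Trim17 on the same strand, did not pass in either genotype (-0.55 and -0.77).

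In WT cells H4 held both the largest fall and the largest rise of the members. Hist1h4d (chr13:23581598-23582735, plus strand) was 10.1, 8.37, 14.1 and 13.9 TPM in WT labelled RNA and 59.0, 51.2, 37.5 and 43.4 TPM in WT preexisting RNA, each at 10 and 15 minutes in replicate 1 and then in replicate 2. In depleted cells it was 5.15, 10.3, 5.93 and 10.6 TPM and then 25.3, 52.8, 31.5 and 34.3 TPM. No labelled value reached the lowest preexisting one, and the differences were -1.96 (SE 0.25, adjusted p = 0.00146) in WT and -2.05 (SE 0.25, adjusted p = 0.00092) in depleted cells. Of its windows 89.8% occur in no other gene. Hist1h4k differed by -1.77 and -1.70, Hist1h4h by -1.68 and -1.59, Hist1h4n by -1.68 and -1.36, and Hist1h4m by -1.64 and -1.41, each in WT and then in depleted cells. Hist1h4f and Hist1h4j, at the low end of the members, passed in neither genotype (-0.19 and -0.28 in WT).

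Hist4h4 (chr6:136801553-136804415, minus strand), an H4 gene outside the clusters with an annotated transcript of 2863 bases, went the other way. It was 3.34, 2.80, 2.95 and 2.41 TPM in WT labelled RNA and 0.437, 0.226, 0.310 and 0.233 TPM in WT preexisting RNA. In depleted cells it was 4.35, 5.85, 5.29 and 2.71 TPM and then 1.05, 0.796, 0.490 and 1.22 TPM. Each labelled value lay above every preexisting one. The differences were 1.57 (SE 0.23, adjusted p = 0.00214) and 1.53 (SE 0.23, adjusted p = 0.00174). Preexisting culture means of Hist4h4 were 0.30 (WT) and 0.89 TPM (Dicer depleted), both below the minimum of 1 TPM. Its mean over all 16 libraries, 2.15 TPM, met that minimum only through labelled RNA. Its place among the members thus rested on the fraction in which it was higher. The transcript shares little with other genes, with 93.3% of its windows unique, and 34.7% of its bases are T, the highest share among the members. Over the 16 libraries its r with the 12 other H4 genes was -0.931 to -0.270. Those libraries span both fractions, so this r largely restates the difference between fractions. With a minimum mean of 5 TPM it is no longer tested.

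H3 genes had no lower call in either genotype. Hist1h3h (chr13:21717659-21718069, plus strand), the highest, was 25.97, 14.7, 38.6 and 42.0 TPM in WT labelled RNA and 27.4, 34.6, 20.0 and 27.7 TPM in WT preexisting RNA. Labelled values lay below preexisting ones in replicate 1 and above them in replicate 2, and the difference was 0.06 (SE 0.35, adjusted p = 0.916). In depleted cells it was 10.9, 26.6, 23.0 and 27.4 TPM against 19.5, 43.0, 25.9 and 27.6 TPM, with a difference of -0.41 (SE 0.35, adjusted p = 0.379). The H3 median was -0.58 without WT replicate 2 and 0.83 without WT replicate 1, so its sign in WT depended on the culture. Hist1h3d, with 75.2% of its windows found in no other gene, had the highest WT difference of the type at 0.78 (SE 0.39, adjusted p = 0.168), and Hist1h3g stood at 0.37 (adjusted p = 0.458).

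Hist2h3c1 was the H3 gene that passed, and only in depleted cells. It ran from 11.8 to 34.8 TPM in labelled and from 7.98 to 18.2 TPM in preexisting libraries, and differed by 0.91 (SE 0.26, adjusted p = 0.0239) in depleted and by 0.66 (SE 0.26, adjusted p = 0.0843) in WT cells. The difference between the genotypes was 0.25 and did not pass (adjusted p = 0.9999). The call was lost after centring (0.37) and at 15 minutes alone (0.36). The gene has no window of its own and overlaps the noncoding Gm20634 on the same strand, so its signal cannot be told apart from that of other genes. Its r with the 11 other H3 genes was -0.192 to 0.544, whereas the median over all H3 pairs was 0.910.

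Linker histone genes share little sequence and varied more between cultures. Hist1h1d, the highest, ran from 2.92 to 17.6 TPM in labelled and from 13.2 to 35.0 TPM in preexisting libraries and was the H1 gene that passed in both genotypes (-1.34, SE 0.40, adjusted p = 0.0340 in WT and -1.72, SE 0.40, adjusted p = 0.0107 in depleted cells). Hist1h1b and Hist1h1e passed in depleted cells (-1.498 and -1.637) and not in WT (-1.04 and -1.08, adjusted p = 0.0806 and 0.0851). Hist1h1a likewise passed in depleted cells (-1.60, limma adjusted p = 0.0337) and not in WT (-0.89, limma adjusted p = 0.206). Hist1h1c passed in neither (-0.46 and -0.16). Without WT replicate 1 the H1 median in WT was -0.11, and without WT replicate 2 it was -1.88. The WT call of Hist1h1d was lost without a filter on low values, with exonic entries scaled alone and at either labelling time alone.

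Members with more sequence of their own were looked at separately. Of the 28 members with at least 50% of their windows unique, a set formed after the values were seen, 14 were lower in WT and 19 in depleted cells, with medians of -1.06 and -1.35. Base composition was also laid beside the types, because 4sU enters RNA in place of uridine. The median share of T in the transcript was 14.2% for H2A, 16.1% for H2B, 19.7% for H3, 19.8% for H1 and 20.6% for H4; its part in the result was not tested.

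**Figure D4:**
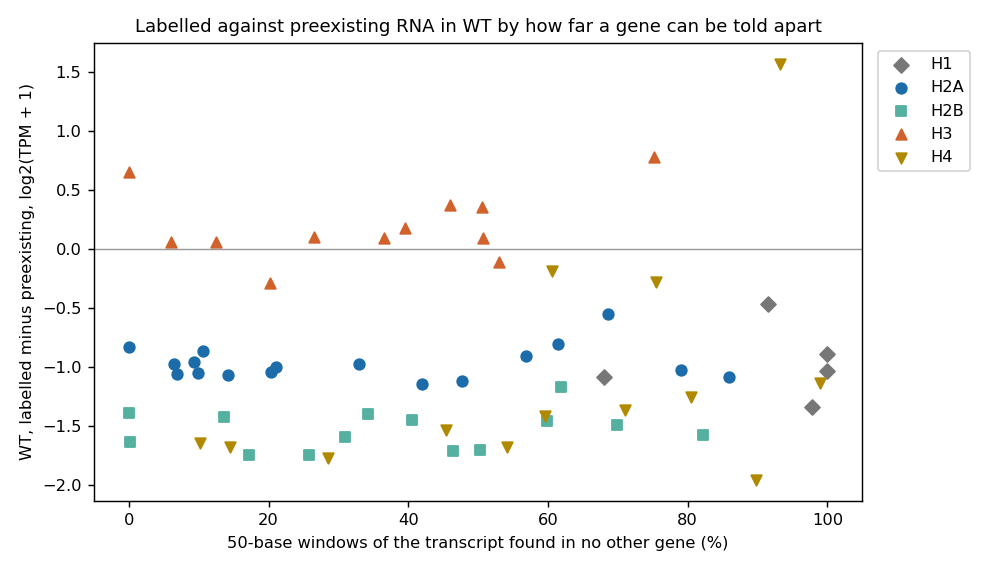
Labelled minus preexisting difference in WT, in log2(TPM + 1), against the share of 50-base windows found in no other gene, in percent, 1 point per member and marked by histone type. H3 genes lie from -0.29 to 0.78 (their median turns to -0.39 after centring on all genes) and H2B genes between -1.17 and -1.75 at low and high shares alike; Hist4h4 is at 1.57 and 93.3%.

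Loss of Dicer was then compared with WT in new RNA. No member passed the test, where 0.128% of all genes did, and the smallest adjusted p among members was 0.345. Members lay mostly on the low side: 57 of 61 had a difference below 0, beside 44.5% of all genes, with a median of -0.33 beside 0.06 for all genes. In bulk RNA, fewer cells in S phase and less histone RNA per cell cannot be told apart. At an unadjusted p below 0.05 stood 2 members, both H1. On the log2 scale averaged over both times, depleted cultures were below WT cultures without overlap for 8 of 61 members, beside 21.1% of all genes. Medians by type were -0.82 for H1, -0.56 for H2B, -0.35 for H3, -0.25 for H4 and -0.22 for H2A.

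The direction was not stable. At 10 minutes alone the members' median was -0.74 and at 15 minutes alone it was 0.08. Without WT replicate 2, the culture of highest labelled sum, it was 0.06, and without WT replicate 1 it was -0.73. The 3 members of smallest p were Hist1h1b (-0.97, SE 0.40, adjusted p = 0.345), Hist1h1e (-1.01, SE 0.42, adjusted p = 0.358) and Hist1h2bf (-0.59, SE 0.27, adjusted p = 0.405). Hist1h1b was 8.00, 5.11, 16.4 and 19.0 TPM in WT and 3.63, 5.85, 3.33 and 8.42 TPM in depleted labelled RNA. The values of WT replicate 1 lay within the depleted range, and those of WT replicate 2 above it.

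In preexisting RNA the members showed no common direction. None passed the limma test, where 0.646% of all genes did, and none had an unadjusted p below 0.05; the smallest adjusted p was 0.284. Differences were below 0 for 32 of 61 members, beside 45.9% of all genes, and the median was -0.01 beside 0.03. Types went different ways: 12 of 13 H4, 13 of 14 H2B and 4 of 5 H1 genes were below 0, with medians of -0.40, -0.28 and -0.44, whereas all 17 H2A genes and 9 of 12 H3 genes were above 0, with medians of 0.13 and 0.07. On the same averaged log2 scale, depleted cultures lay below WT cultures without overlap for 25 of 61 members, beside 20.1% of all genes; 11 of these were H4 and 12 were H2B genes. Genes of a type share sequence and library, so their counts are not independent, and the split between H2A and its partner H2B was not seen at 15 minutes alone, where 16 of 17 H2A genes were below 0. Without depleted replicate 1 the H2A median was -0.17, with 14 of 17 genes below 0. The 10 minute preexisting library of that culture stood apart in its makeup, with H2A at 34.7% of the members' sum, where H2A was 15.3 to 23.5% in the other preexisting libraries. The H3 to H4 ratio in preexisting RNA was 0.496 to 0.664 in WT and 0.771 to 0.848 in depleted libraries, without overlap, and is given with no test.

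**Figure D5:**
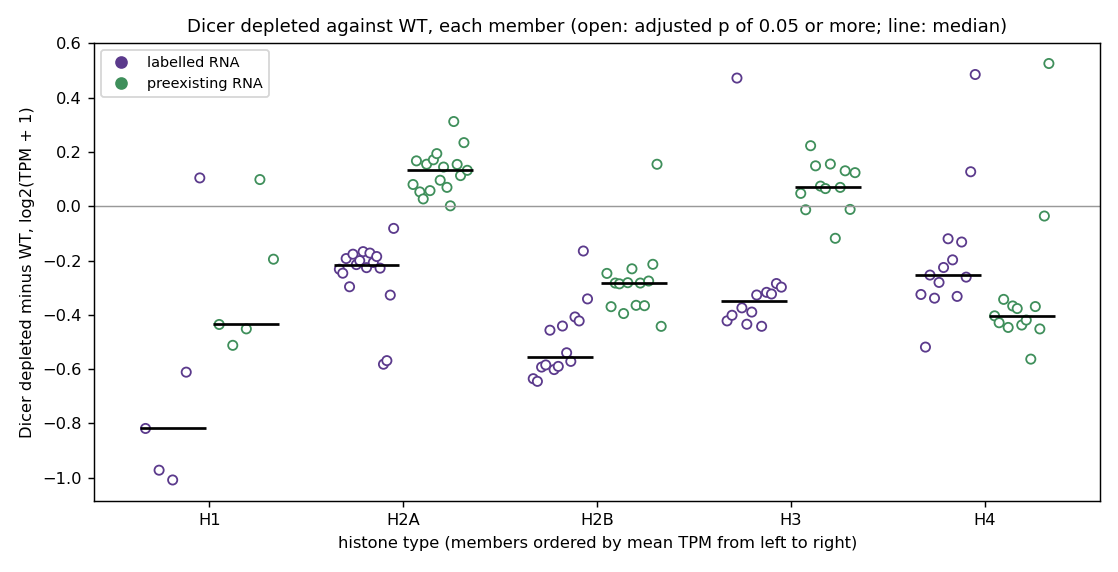
Dicer depleted minus WT difference of each member in log2(TPM + 1), by histone type, in labelled and preexisting RNA; open points did not pass an adjusted p of 0.05 and lines are medians. No point is filled, labelled medians run from -0.82 for H1 to -0.22 for H2A, and preexisting medians from -0.44 for H1 to 0.13 for H2A.

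Smallest p-values in preexisting RNA belonged to H4 genes. Hist4h4 stood at 0.53 (SE 0.23, limma adjusted p = 0.284), between preexisting means of 0.30 and 0.89 TPM that lie below the 1 TPM minimum. Averaged over both times, its depleted cultures lay above its WT cultures in both fractions. Its single labelled libraries overlapped, at 2.71 to 5.85 TPM in depleted and 2.41 to 3.34 TPM in WT cells. Hist1h4m was 23.5, 20.5, 11.7 and 16.6 TPM in WT and 8.81, 19.9, 10.2 and 9.77 TPM in depleted cells, a difference of -0.56 (SE 0.31, adjusted p = 0.383). Hist1h4d, given above, differed by -0.43 (SE 0.25, adjusted p = 0.427). In preexisting RNA single libraries of the genotypes overlapped for Hist1h4m and Hist1h4d.

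Whether labelled and preexisting RNA responded unequally to the loss of Dicer was tested as an interaction. It passed for no member and for 0.00458% of all genes, with members' adjusted p at 0.9999 and none of their unadjusted p below 0.05. The smallest p belonged to 3 H2A genes of chromosome 3, Hist2h2aa2 (-0.74), Hist2h2aa1 (-0.68) and Hist2h2ab (-0.54). The members' median was -0.31, with 47 of 61 below 0, while the H4 median was 0.15. Without WT replicate 2 the medians of H1, H2B and H3 turned from -0.46, -0.27 and -0.44 to 0.41, 0.26 and 0.31, that of H4 was 0.63 and that of H2A went from -0.32 to -0.08. Labelling for 15 against 10 minutes changed no member in labelled RNA, where 0.00917% of all genes passed. The median was 0.25 and 56 of 61 members were above 0, with a smallest adjusted p of 0.835. Hist2h3c1 (-0.59), the 1 member with an unadjusted p below 0.05, Hist1h1d (0.42) and Hist2h2ac (0.83) had the smallest p. Hist2h2ac had a labelled median of 1.64 TPM, and in depleted replicate 1 it was 0.0 TPM at 10 and 3.56 TPM at 15 minutes.

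Genes that act on histone RNA and protein gave no calls between genotypes. Slbp, whose protein binds the stem-loop, had 106 ± 14.4 TPM in WT cultures and 89.5 ± 0.0396 TPM in depleted ones in labelled RNA (SD, n = 2 cultures). In preexisting RNA it had 114 ± 3.87 and 87.9 ± 22.5 TPM. Its differences of -0.25 and -0.40 did not pass (adjusted p = 0.650 and 0.377). None of 23 tested genes of histone transcription, processing and decay passed in either fraction. Those of smallest p were Lsm10, a subunit of the U7 particle that cuts histone RNA, at -0.93 and -1.26 (adjusted p = 0.126 in preexisting RNA), and Snrpg at -0.60 and -0.92. None of 19 chaperone and assembly genes passed; Nasp, which carries H3 and H4 and itself stood at 1060 TPM in WT labelled RNA, differed by -0.69 and -0.50, and Ubn2 by 0.34 and 0.65.

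The cell cycle lists stood beside them. Of 31 DNA replication genes 1 passed, Rfc2 of the clamp loader, at -1.31 in preexisting RNA (adjusted p = 0.0477), and 24 were below 0 in labelled RNA with a median of -0.15. Of 14 mitotic genes none passed and 12 were below 0 in labelled RNA, with a median of -0.19. Among all genes 44.5% were below 0 there, with a median of 0.06. For the members this comparison was not stable in direction, as given above. Aurka differed by -0.49 in labelled and Ccnb1 by -0.33 in preexisting RNA. None of 8 stem cell markers passed, with a labelled median of -0.02, and those of smallest p were Tdgf1 and Nanog, at -0.44 and 0.49 in preexisting RNA. What part the cell cycle had in the levels of the members was not tested.

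Histone variants replace the standard histones at particular sites, and most are made throughout the cell cycle from polyadenylated RNA. Of 10 tested variants, 2 were lower and 1 higher in WT labelled RNA, beside 7.98% and 26.1% of all genes. Their median was -0.18 beside 0.24 for all genes. In depleted cells 3 were lower and 2 higher, beside 11.0% and 30.1% of all genes, with a median of -0.37 beside 0.28. The difference between variants and members was not tested. H2afx, which can also end in a stem-loop, differed by -0.80 in WT (adjusted p = 0.0977) and fell by 1.26 in depleted cells (adjusted p = 0.0174). H2afz, the source of H2A.Z, was 2227 TPM in WT labelled and 3827 TPM in WT preexisting RNA and fell by 0.78 (adjusted p = 0.00472). Cenpa, the H3 variant of centromeres, was 252 and 149 TPM and differed by 0.75 (adjusted p = 0.00669). Between genotypes H2afz and Cenpa differed by -0.50 and -0.60 in preexisting RNA (limma adjusted p = 0.141 and 0.114). H2afy went the other way, by 0.90 in labelled and 0.85 in preexisting RNA (limma adjusted p = 0.252 and 0.177). None of the 10 variants passed between genotypes, and 7 were below 0 in labelled and 6 in preexisting RNA. The H3.3 genes also parted between fractions. Like H2afx and H2afy, they were named after their values were seen. H3f3a fell by 0.71 in WT labelled RNA (limma adjusted p = 0.0189) and H3f3b stood at 0.18 (limma adjusted p = 0.532).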

How the data were processed

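RNA of 2 fractions was sequenced in 16 libraries; per the labels' protocols these were total RNA libraries, ribosomal reads were removed with STAR 2.5.0, and RSEM quantified the rest over exonic and intronic sequences. The small RNA libraries of the series were not used here. Deposited values are a signal per transcript that sums to 10000000 in each library, so the values were divided by 10 to give TPM. Of 121429 exonic entries, 110366 matched GENCODE M21 (GRCm38, the same sequence build as mm10) and were summed per gene; unmatched ones were tested unnamed. Genes with a mean of at least 1 TPM (21821) were fitted with limma 3.58.1 (trend, R 4.3.3) on log2(TPM + 1); the 10 and 15 minute values of a culture were averaged, which gave 8 samples and 4 residual degrees of freedom. P-values are two-sided and adjusted by Benjamini and Hochberg over all genes, with a threshold of 0.05; limma was tested on simulated data. No p is given for sums, since 2 against 2 cultures cannot reach the threshold.

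The members, lists and tests were chosen with earlier results of these data known. Named were the 3 highest members of each type and, per comparison, up to 10 rises and 10 falls past the threshold or else the 3 members of smallest p, with values by library for those the results turn on; from the lists, Dicer1, Slbp and genes past the threshold between genotypes or else those of smallest p. Alternatives changed the pseudocount, filter, scaling, block, times and cultures. Labelled and preexisting RNA of a culture are paired by origin: deviations of same-numbered samples correlated across genes at 0.397 in WT and 0.0512 in depleted cells.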

Additional observations from a re-analysis of the deposited data

How the results depend on the processing

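Counts of 0 members called between genotypes, in the interaction and for labelling time were the same under each alternative run. Members lower in labelled RNA numbered 25 to 45 of 61 in WT and 41 to 50 in depleted cells under other pseudocounts, filters, scalings and blocks. Over all genes those settings gave 1011 to 5230 lower in WT and 1355 to 6294 in depleted cells. From 10 minute libraries 12 members were lower in WT and 38 in depleted cells, beside 529 and 1408 of all genes. From 15 minute libraries 36 and 26 members were lower, beside 1341 and 1491 of all genes. With a culture left out they ranged from 0 to 30 in WT and from 1 to 41 in depleted cells. Members higher ranged from 0 to 1 in WT and from 1 to 2 in depleted cells with a culture left out; they were 0 in WT and 1 in depleted cells at a minimum of 5 TPM, 2 in WT with exonic entries scaled alone, 2 in WT at 10 minutes, 1 in depleted cells at 15 minutes and 1 there after centring. The cause was not tested; leaving out a culture leaves 1 sample in a group, which is then assumed to vary like the others. The summed level in labelled over preexisting RNA in depleted cells, 0.363, was 0.470 scaled to protein-coding genes and 0.284 to 0.461 without a depleted culture. Signs turned for Hist1h3h in WT (-0.43 centred, -0.30 at 15 minutes, -0.63 to 0.75 with a culture left out), for Hist1h3g in WT (-0.12, -0.0055 and -0.37 to 1.12 likewise) and for Hist1h3g in depleted cells (0.23 with exonic entries scaled, -0.21 to 0.18 with a culture left out).

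With the replicate number as a replicate block, 37 members were lower and 1 higher in WT and 44 and 2 in depleted cells, and no member was called between genotypes. Over all genes in preexisting RNA, 109 were higher and 32 lower in depleted cells; the replicate block gave 205 and 62, and over the alternatives the counts ran from 0 to 205 and from 0 to 62. In labelled RNA, 20 higher and 8 lower genes became 0 to 66 and 0 to 38. Same-numbered cultures of the 2 genotypes correlated at 0.162 in labelled and 0.219 in preexisting RNA. Depth is unknown and limits the lowest members most.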

Other observations

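The annotated pseudogene Hist1h2aj, outside the members, had a mean of 29.1 TPM. It ran from 8.07 to 25.0 TPM in labelled and from 24.1 to 62.7 TPM in preexisting libraries.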
